A study of Chlorocebus sabaeus with 3 samples.

Results

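Connexins and the functionally related channel protein pannexin 1 were read on the human U133 Plus 2.0 expression array in vervet monkey limbus, cornea, and conjunctiva. Members were all probe sets annotated with a single gene symbol that was GJA1, GJA4, GJB2, GJB5, GJB6, GJC1, or PANX1. All 7 genes were found, with 14 of the 54675 probe sets on the array, out of 19775 genes named alone by any probe set. GJC1 and PANX1 each had 4 probe sets, GJA4 had 2, and the other genes had 1 each. The labels name no strain, treatment, or genotype beyond the species, and there was 1 array for each tissue, so the series holds 3 arrays in all. Per the methods, the globes of young vervet monkeys were frozen after death, and the epithelium of the cornea and of the limbal rim was dissected with part of the stroma under it. The conjunctiva was taken with the underlying Tenon capsule, and the study states that the 3 tissues came from the same eye. Without a second array of any tissue, the spread between samples is unknown, so differences are described and not tested. A ratio is the linear intensity in 1 tissue over that in another within the same probe set.

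Connexins form channels between neighboring cells. Connexin subunits assemble into a hemichannel in the membrane of each cell, and a pair of hemichannels docks across the gap to let ions and small metabolites pass. The avascular corneal epithelium is known for abundant gap junctions, and keratocytes of the stroma are also coupled by them. Pannexin 1 belongs to a separate protein family with the same membrane topology. It forms channels in a single membrane that release ATP, which acts on purinergic receptors. GJA1 (connexin 43) is the most widely expressed connexin, GJB2 (connexin 26) and GJB6 (connexin 30) are found together in many stratified epithelia and in the cochlea, and GJB5 (connexin 31.1) is an epidermal connexin. GJA4 (connexin 37) is known from the endothelium and the ovary, and GJC1 (connexin 45) from smooth muscle and the conduction system of the heart.

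Of the 7 genes, 4 shared one order with both steps at least 2-fold: highest intensity in the cornea, middle in the limbus, and lowest in the conjunctiva. They were GJA1, GJB2, GJB6, and PANX1, each read on its brightest probe set, the one of highest mean log2 intensity. Such steps were taken by 4 of the 14 probe sets of the 7 genes and by 0.249% of all probe sets. GJC1 ran the other way and was lowest in the cornea. GJB5 followed the first order in smaller steps, and GJA4 differed less than 1.5-fold between any 2 tissues as deposited.

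The arrays were alike in the bulk of their values, with medians between 48.8 and 50.7, but 18 spiked hybridization controls were not. Their mean was 1.72-fold higher in cornea and 1.46-fold higher in conjunctiva than in limbus. Dividing each array by this mean lowers every cornea value against the limbus and changes the median log2 difference of cornea minus limbus over all probe sets from 0.03 to -0.74. Comparisons of the cornea with the limbus are therefore given under this scaling as well for the 7 genes and for the calls of other connexin, partner, and purinergic genes that it changes. A marker of the cornea and one of the conjunctiva went with the labels. The corneal keratin KRT12 was at 8068 in cornea, 2633 in limbus, and 54.3 in conjunctiva. The cornea was thus 149-fold over conjunctiva and 3.06-fold over limbus, and the limbus was 48.5-fold over conjunctiva. The goblet cell mucin MUC5AC was highest in the conjunctiva, at 1618 against 127 in limbus and 102 in cornea.

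**Figure D1:**
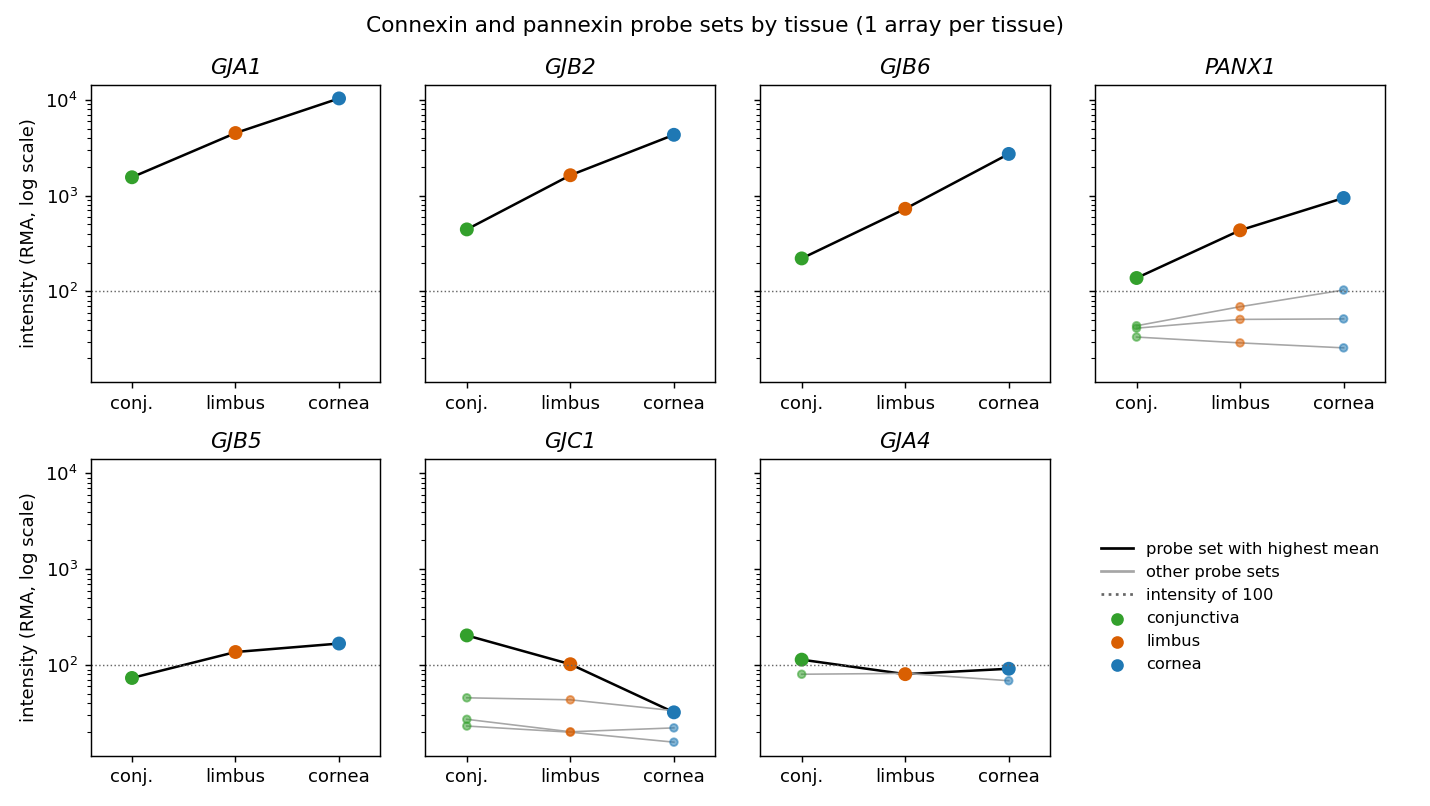
Intensity (RMA, log scale) of all 14 probe sets of the 7 genes in the conjunctiva, the limbus, and the cornea, 1 array each; black lines join the probe set of each gene with the highest mean log2 intensity and gray lines the others. GJA1, GJB2, GJB6, and the brightest PANX1 probe set climb from conjunctiva to cornea, GJC1 descends, and the remaining probe sets stay under 200.

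GJA1 (201667_at) had an intensity of 10298 in cornea, 4485 in limbus, and 1551 in conjunctiva. The cornea was 2.30-fold over limbus and 6.64-fold over conjunctiva, and the limbus was 2.89-fold over conjunctiva. A total of 142 of the 54675 probe sets (0.26%), GJA1 included, had a ratio of cornea to conjunctiva at least as large. In bulk tissue, fewer cells of a type and less RNA per cell cannot be told apart, for this gene and for those that follow.

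GJB2 (223278_at) was at 4299 in cornea, 1628 in limbus, and 443 in conjunctiva. Its ratio was 2.64 for cornea over limbus, 9.70 for cornea over conjunctiva, and 3.67 for limbus over conjunctiva. Both steps were larger than those of GJA1.

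GJB6 (231771_at) was at 2716 in cornea, 727 in limbus, and 221 in conjunctiva. The cornea was 12.3-fold over conjunctiva, the largest ratio of the 7 genes, and 47 probe sets on the array (0.086%) had one at least as large. GJB6 also had the largest step between the cornea and the limbus, 3.73-fold, while its step of 3.29-fold between the limbus and the conjunctiva was smaller than that of GJB2. Of the 4 genes, GJB6 was the sole one with a larger ratio from limbus to cornea than from conjunctiva to limbus, an order that turned after quantile normalization, where these ratios were 3.20 and 3.34, and after division by the mean of the controls, where they were 2.18 and 4.82.

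The brightest PANX1 probe set (227107_at) was at 943 in cornea, 434 in limbus, and 138 in conjunctiva. The ratios were 2.17 for cornea over limbus, 6.83 for cornea over conjunctiva, and 3.15 for limbus over conjunctiva. In log2 terms this pattern lay close to that of GJA1, although the proteins are not homologous. The other PANX1 probe sets were much dimmer and shared the pattern in part. On 235295_at the intensity was 103 in cornea, 69.3 in limbus, and 43.8 in conjunctiva, a ratio of cornea to conjunctiva of 2.36. On 204715_at it was 51.7, 51.1, and 41.3 in the same order, so the cornea and the limbus were nearly equal. The last, 236372_at, was at 25.8, 29.0, and 33.4, and thus highest in the conjunctiva. The mean over the 4 probe sets of the log2 difference of cornea minus conjunctiva was 0.99, compared with 2.77 on the brightest probe set. As deposited, the cornea was therefore above the conjunctiva on 3 of the 4 probe sets, and by more than 2.36-fold on the brightest alone.

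The 2-fold step between the cornea and the limbus was close to the threshold for several of these genes. As deposited, all 4 genes were at least 2-fold higher in cornea than in both other tissues. So were 1.32% of all probe sets and 1.89% of all genes on their brightest probe sets. After quantile normalization of the 3 arrays, GJB2 (2.15-fold over the limbus) and GJB6 (3.20-fold) passed, while GJA1 was at 1.82 and PANX1 at 1.997. With division of each array by its mean hybridization control, GJB6 alone passed, at 2.18-fold, and the ratio of cornea to limbus was 1.54 for GJB2, 1.34 for GJA1, and 1.27 for PANX1. The cornea was still the highest tissue for all 4 genes under each of the 6 settings, namely the deposited values, division by the array median, quantile normalization, a pseudocount of 32, and division by the mean or the geometric mean of the controls. The step from the conjunctiva to the limbus and the ratio of cornea to conjunctiva were at least 2-fold for all 4 genes in every setting.

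**Figure D2:**
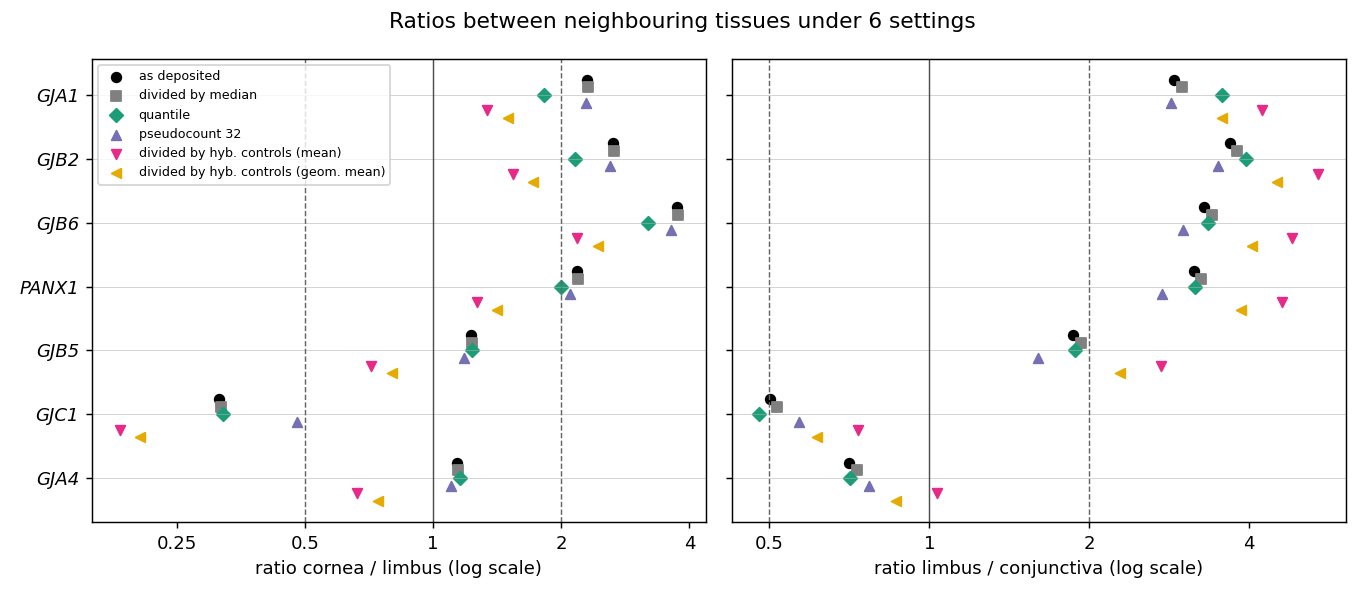
Ratio of cornea to limbus (left) and of limbus to conjunctiva (right), on log axes, for the brightest probe set of each gene under 6 settings; each symbol is 1 setting, solid lines mark equality and dashed lines a 2-fold ratio. Division by the hybridization controls draws GJA1, GJB2, and PANX1 under 2-fold between cornea and limbus and leaves GJB6 above it, and it moves GJB5 and GJA4 across equality.

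All 7 genes were then counted against the array as a whole. Of the 14 probe sets, 4 passed the 2-fold rule in the cornea, at least 2-fold over both other tissues, and 0 did so in either of the others. The matching shares of all probe sets were 1.32% in cornea, 0.355% in limbus, and 1.1% in conjunctiva. The same 4 probe sets were at least 2-fold lower in the conjunctiva than in both other tissues, as were 1.0% of all probe sets. The order cornea, limbus, conjunctiva with 2-fold steps was met by 136 probe sets on the array (0.249%), these 4 among them. Between the cornea and the conjunctiva, 6 probe sets of 5 of the genes were at least 2-fold higher in cornea (3.89% of all) and 1 was at least 2-fold higher in conjunctiva (3.79%). Between the cornea and the limbus, the same 4 probe sets were higher by at least 2-fold in the cornea (1.95%) and 1, of GJC1, in the limbus (2.68%). Between the limbus and the conjunctiva, 4 were higher by this much in the limbus (1.9%) and 0 in conjunctiva (1.67%). An intensity of at least 100 in any tissue was reached by 8 of the 14 probe sets. PANX1 235295_at reached it in the cornea alone and GJA4 204904_at in the conjunctiva alone, so a count over the 8 would favor probe sets that differ. Over the 7 genes, the median of log2 intensity minus that of both other tissues averaged was 1.95 in cornea, 0.24 in limbus, and -2.13 in conjunctiva. Over all 19775 genes it was 0.02, -0.04, and 0.01. Of these, 11003 reached an intensity of 100 on their brightest probe set, as did all of the 7 genes.

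**Figure D3:**
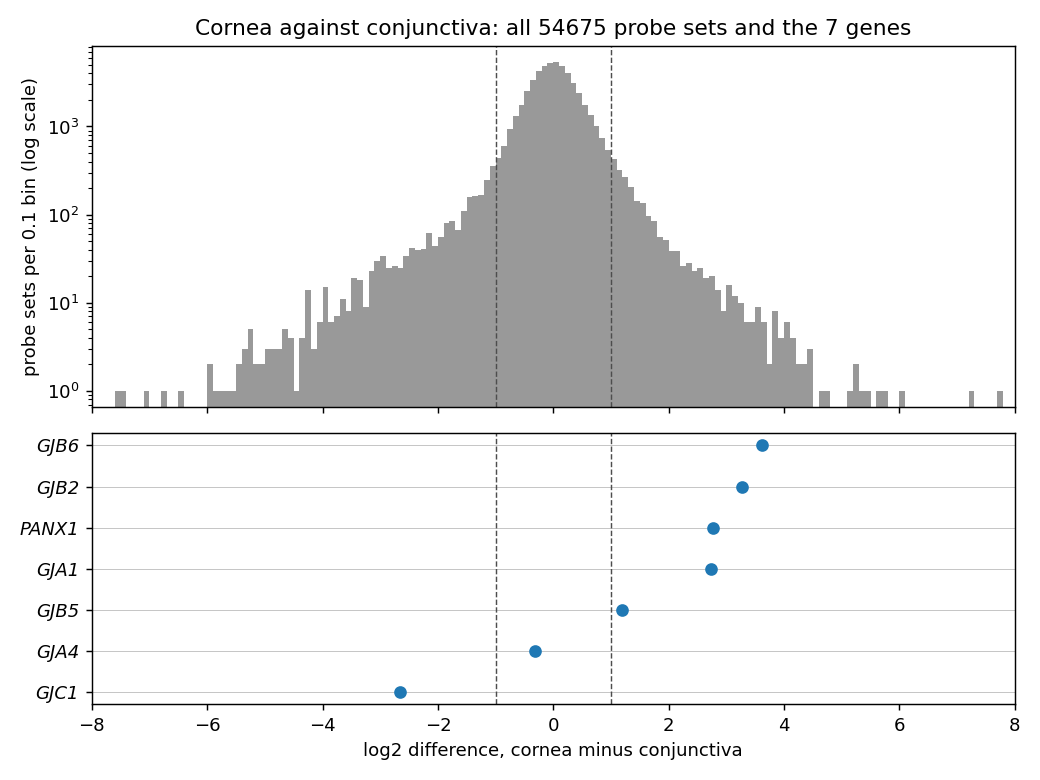
Upper panel, number of probe sets (log scale) by log2 difference of cornea minus conjunctiva for all 54675 probe sets; lower panel, the same difference for the brightest probe set of each of the 7 genes, with dashed lines at a 2-fold difference. GJB6, GJB2, PANX1, and GJA1 lie in the upper tail, GJB5 just past the upper dashed line, GJA4 near 0, and GJC1 in the lower tail.

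GJB5 had a single probe set (206156_at) and stayed under 200 in all tissues. It was at 168 in cornea, 137 in limbus, and 73.5 in conjunctiva. The cornea was 2.29-fold and the limbus 1.87-fold over conjunctiva, while the cornea was 1.23-fold over limbus and below it, at a ratio of 0.715, after division by the mean of the hybridization controls. The order of the cornea and the limbus for GJB5 is thus not settled by these arrays, and the conjunctiva was lowest under each setting.

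GJC1 was highest in the conjunctiva on all 4 of its probe sets as deposited, and on its brightest alone after division by the mean of the hybridization controls. On the brightest, 228776_at, it was at 204 in conjunctiva, 102 in limbus, and 32.2 in cornea. The conjunctiva was 6.34-fold over cornea, and 315 probe sets on the array (0.576%) had a ratio in this direction at least as large. The step from limbus to conjunctiva was 1.996-fold, so that GJC1 missed the 2-fold rule for the conjunctiva as deposited and passed it after quantile normalization. With respect to the cornea it was at least 2-fold lower than in both other tissues. So were 1.73% of all probe sets and 2.93% of all genes on their brightest probe sets. The other 3 GJC1 probe sets were all under 50. They were at 45.7 in conjunctiva, 43.5 in limbus, and 33.5 in cornea on 208460_at, and at 27.2, 20.2, and 22.2 on 228563_at. On 243502_at they were at 23.2, 20.0, and 15.7. None of these 3 probe sets differed by 2-fold as deposited, and after that division the limbus was highest on each. The GJC1 pattern therefore rests in size on 1 probe set.

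GJA4 showed no clear order. On 204904_at the intensity was 114 in conjunctiva, 91.7 in cornea, and 80.6 in limbus, and on 40687_at it was 80.4, 68.8, and 82.1. The probe sets disagreed on the highest and on the lowest tissue, and the largest ratio between 2 tissues on either was 1.42 as deposited. After division by the mean of the hybridization controls the limbus was highest on both.

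Markers of several cell types also differed between the dissected tissues, while the cell makeup itself was not measured. Orders and sums of markers are given as deposited. Of 6 corneal epithelial genes, 5 were highest in the cornea and 1, CLU, in the conjunctiva. The cornea was 1.45-fold over limbus for KRT3 and 1.71-fold for PAX6, less than the 1.72-fold difference of the hybridization controls. After division by the mean of the controls, the limbus is thus highest for both. The summed intensity of the 6 genes was 41692 in cornea, 18551 in limbus, and 14071 in conjunctiva. ALDH3A1, a crystallin-like dehydrogenase, was 8.87-fold higher in cornea than in conjunctiva, and TKT was 9.72-fold higher. The ocular transcription factor PAX6 was 2.24-fold higher. Genes of basal epithelial cells were divided. KRT5, a keratin of basal cells in stratified epithelia, was 2.21-fold and ITGB4 1.46-fold higher in cornea than in conjunctiva. KRT14, the partner of KRT5, was 104-fold and KRT15 19.4-fold higher in conjunctiva. The median for this list in the cornea was -1.89 on the log2 scale. The ratios of GJB2 and GJB6 were thus near or above those of ALDH3A1 and TKT, and far above those of KRT5 and PAX6. They were also above that of KRT3 (4.11) and far below that of KRT12 (149). All 5 keratocyte genes were highest in the cornea as well, with a sum of 24160 against 10229 in limbus and 9532 in conjunctiva. LUM, with the cornea 1.70-fold over limbus, is highest in the limbus after division by the mean of the controls. The stromal proteoglycan KERA had a ratio of cornea to conjunctiva of 16.8 and the small proteoglycan DCN one of 1.46. The part of epithelial and of stromal cells in the levels of GJA1, GJB2, GJB6, and PANX1 was not tested.

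Markers of several cell types were, like GJC1, higher in the conjunctiva than in the cornea, among them those of vessels. All 7 smooth muscle and pericyte genes reached 100, and 6 were highest in the conjunctiva, where their sum was 4465, compared with 1643 in limbus and 570 in cornea. ACTA2, the smooth muscle actin, was 24.2-fold higher in conjunctiva than in cornea, and TAGLN was 19.3-fold higher. Of 7 endothelial genes, 4 were highest in the conjunctiva and 3 in limbus as deposited, with a sum of 2275, 1587, and 513 in conjunctiva, the limbus, and the cornea. The conjunctiva was 1.459-fold over limbus for PECAM1, 1.20-fold for CDH5, and 1.16-fold for CLDN5. These ratios are below the 1.464-fold difference of the hybridization controls, so the limbus is highest for these genes after division by the mean of the controls. PECAM1 was 14.7-fold and VWF 8.86-fold higher in conjunctiva than in cornea. GJC1 shared this direction on all of its probe sets. GJA4 was in the cornea at 0.804 and 0.856 of its intensity in the conjunctiva. The same ratio of the endothelial genes was 0.068 for PECAM1, 0.113 for VWF, 0.257 for EMCN, and 0.409 for CDH5. It was 0.711 for CLDN5, 0.726 for TEK, and 0.898 for KDR. Of all probe sets, 22.6% and 29.5% had a ratio of conjunctiva to cornea at least as large as those of GJA4, so no likeness is read from it. GJA5, a connexin of arterial endothelium, was at 27.2 or less in every tissue on both of its probe sets. Of 4 arterial endothelial genes, GJA5 included, 2 were highest in the conjunctiva, 1 in limbus, and 1 in cornea as deposited. HEY2 was at 518 in conjunctiva, 122 in limbus, and 40.0 in cornea, and SOX17 at 72.6, 41.2, and 22.9. EFNB2 was at 1008, 1120, and 1263 in the same order. All 5 goblet cell genes were also highest in the conjunctiva, with a sum of 8311 there against 1193 in limbus and 1659 in cornea. All 3 leukocyte genes measured were highest there too, with a sum of 638 against 293 and 205, PTPRC being 18.7-fold higher in conjunctiva than in cornea. These orders are as deposited. The conjunctiva was 1.10-fold over limbus for PDGFRB of the smooth muscle and pericyte list, 1.34-fold for SPDEF of the goblet cell list, and 1.19-fold for the leukocyte gene CD14. After division by the mean of the controls the limbus is highest for each. The part of vessel, goblet, and immune cells in the level of GJC1 was not tested.

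Other members of the connexin and pannexin families were read for comparison. Of 17 such genes, 9 had a probe set named for them alone, with 14 probe sets, and the others are not analysed here. An intensity of 100 was reached by 3 genes: GJA3, GJB1, and PANX2. GJA3 (connexin 46), best known from the lens, was the only one of the 9 that was at least 2-fold higher in 1 tissue than in both others on its brightest probe set. On 239572_at it was at 203 in cornea, 68.9 in limbus, and 39.3 in conjunctiva. The cornea was 2.94-fold over limbus and 5.15-fold over conjunctiva. The first ratio was 1.71 after division by the mean of the hybridization controls. GJA3 was then called at least 2-fold lower in conjunctiva than in both other tissues. The other GJA3 probe set (208590_x_at) was highest in the cornea as well, at 66.3 against 43.3 and 47.3, but below an intensity of 100. GJB1 (connexin 32), a connexin of the liver and of Schwann cells, was lowest in the cornea, at 74.5 against 131 in limbus and 108 in conjunctiva. PANX2 on its brightest probe set was at 342 in cornea, 258 in limbus, and 356 in conjunctiva as deposited, and the ratio of cornea to limbus turned from 1.33 to 0.774 after division by the mean of the hybridization controls. Over the 9 genes, the median of log2 intensity minus that of both other tissues averaged was -0.06 in cornea, against 1.95 over the 7 genes. All of the 7 genes but only 3 of the 9 reached an intensity of 100, and the 7 were chosen with earlier results known. Nothing is therefore read from this contrast.

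The genes of GJB6, GJB2, and GJA3 lie side by side in this order in the RefSeq annotation of the vervet assembly mChlSab1.0.hap1, with no protein-coding gene between them. All 3 were highest in the cornea and lowest in the conjunctiva on their brightest probe sets. Their ratios of cornea to conjunctiva were 12.3, 9.70, and 5.15 along the chromosome. The flanking genes on the GJB6 side did not share the difference. CRYL1, a dehydrogenase of sugar metabolism, was at 168 in cornea, 252 in limbus, and 178 in conjunctiva, and the next gene, the ciliary transport gene IFT88, was at 294, 316, and 306. On the GJA3 side, ZMYM2, a zinc finger protein gene, was at 1134, 761, and 512, a ratio of cornea to conjunctiva of 2.21, and ZMYM5 was at 42.0, 64.4, and 33.4. After division by the mean of the hybridization controls the order of these 3 connexin genes by tissue was unchanged.

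**Figure D4:**
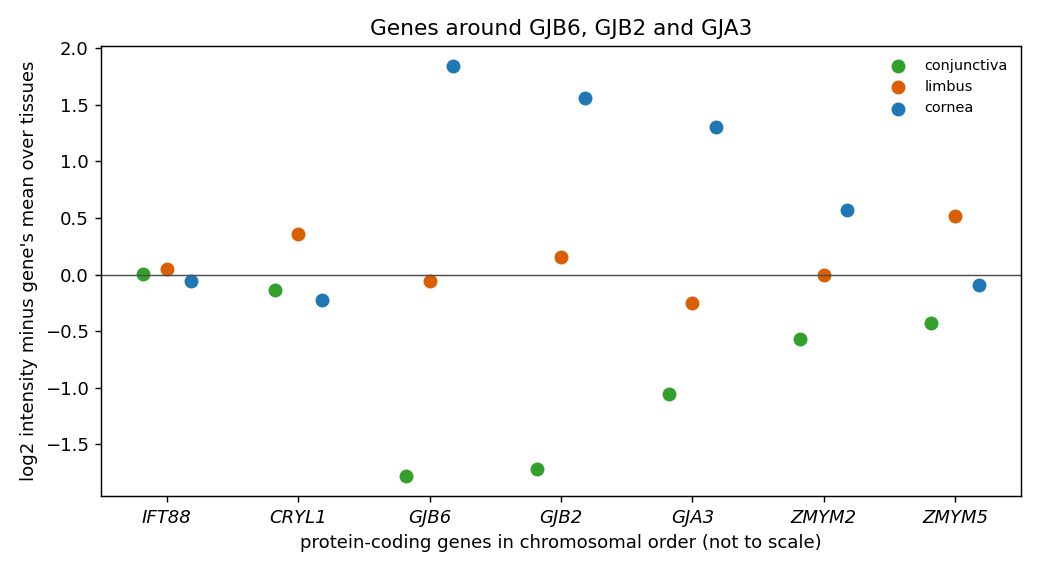
Log2 intensity minus the mean of the gene over the 3 tissues, for GJB2 and the protein-coding genes on either side, in chromosomal order and not to scale; each point is 1 tissue on the brightest probe set of the gene. The tissues are spread widest for GJB6, GJB2, and GJA3, with the cornea on top, and lie close together for IFT88 and CRYL1.

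Proteins that bind connexins or phosphorylate them were read as a further list. Of 11 binding partners, 9 were measured, and of 12 kinases, 11. On their brightest probe sets, 1 partner was at least 2-fold higher in cornea than in both other tissues, 1 was at least 2-fold lower there, and no kinase was either in any tissue as deposited. With the mean of the hybridization controls the kinase PRKCE was 2.24-fold higher in limbus than in conjunctiva and its level in the cornea was 0.367 of that in the limbus. Over all genes, 1.89% were at least 2-fold higher and 2.93% at least 2-fold lower in cornea than in both other tissues on their brightest probe sets, and nothing is read from counts of 0 or 1 in lists of 9 and 11 genes. The partner higher in the cornea was CDH2 (N-cadherin), at 237 in cornea, 90.3 in limbus, and 52.3 in conjunctiva. Its ratio of cornea to limbus, 2.63, was 1.53 after division by the mean of the hybridization controls. CDH2 was then called at least 2-fold lower in conjunctiva than in both other tissues. The partner lower in the cornea was CAV1 (caveolin 1), at 163 against 505 in limbus and 889 in conjunctiva, and its second probe set showed the same order, at 114, 279, and 513. CAV1 is abundant in endothelium and smooth muscle. The partner DBN1 was at 95.5 in cornea, 183 in limbus, and 253 in conjunctiva on its brightest probe set, with no call as deposited. After division by the mean of the hybridization controls it was also called lower in the cornea, at 0.305 of limbus and 0.323 of conjunctiva. TJP1, the scaffold protein that binds the tail of connexin 43, was at 1331 in cornea, 1300 in limbus, and 1618 in conjunctiva, a range of 1.24-fold as deposited. Its ratio of cornea to limbus turned from 1.02 to 0.597 after division by the mean of the hybridization controls. The cell cycle kinase CDK1 passed the 2-fold rule in the cornea on a dimmer probe set (203214_x_at), at 127 against 60.8 and 48.3, but not on its brightest, at 160 against 97.7 and 93.4. The call was lost with a pseudocount of 32, where the ratio of cornea to limbus was 1.72, and with the mean of the controls, where it was 1.22, or their geometric mean, where it was 1.36. The median of log2 intensity in the cornea minus that of both other tissues averaged was 0.08 for the partners and -0.24 for the kinases.

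Genes that sense or break down extracellular nucleotides were read beside PANX1, the ATP release channel. Of 23 such genes, 20 were measured and 8 reached an intensity of 100. None was at least 2-fold higher in cornea than in both other tissues, while 3 were at least 2-fold lower there, beside 1.89% and 2.93% of all genes. Nothing is read from a count of 0 higher among 20 genes. P2RY1, a receptor for ADP, was at 33.5 in cornea, 314 in limbus, and 285 in conjunctiva. ADORA2B, an adenosine receptor, was at 48.4, 222, and 308 in the same order. ENTPD1, an enzyme that degrades extracellular ATP and ADP and is abundant on endothelium and leukocytes, was at 52.4, 145, and 419. As deposited it was also at least 2-fold higher in conjunctiva than in both other tissues. The latter call was lost after division by the mean of the controls, with the limbus at 0.508 of the conjunctiva. In these 3 genes the cornea was lowest under each of the 6 settings. P2RY2, a receptor for ATP and UTP, was at 285 in cornea, 368 in limbus, and 241 in conjunctiva, and did not pass the rule in any tissue as deposited. It passed in the limbus after division by the mean of the controls, at 2.24-fold over conjunctiva and with the cornea at 0.451 of the limbus. The receptor P2RX7 was under 100 in all tissues on its probe sets. On 230741_at it passed the rule in the limbus, at 89.6 against 27.0 in cornea and 34.6 in conjunctiva. Its brightest probe set did not pass, at 51.2 in limbus, 40.9 in cornea, and 71.9 in conjunctiva. The cornea was thus highest for PANX1 on its brightest probe set, though lowest on 236372_at. It was lowest for P2RY1, ADORA2B, and ENTPD1, the 3 of 20 genes that were at least 2-fold lower there.

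Genes with the most similar pattern were named by the distance between log2 intensities, each probe set centered on its mean over the 3 tissues, among 16811 probe sets with a single symbol and an intensity of at least 100. With only 3 tissues, a small distance is easily reached and is given as a description. Between members, GJA1 and PANX1 were the closest, at a distance of 0.087, and 9 probe sets of other genes were closer to GJA1 than PANX1 was. GJB2 and GJB6 were 0.36 apart, and GJB6 and GJC1, the farthest apart of the members, 4.46. Closest to GJA1 were RORA, TUFT1, and CLDN11, at distances of 0.027 to 0.045. Closest to GJB2 were SPOCK1, CLDND1, and XKR4, and closest to PANX1 were SEC16B, HLF, and again RORA, a nuclear receptor, on another probe set. For GJB6 the nearest was SCD, the stearoyl-CoA desaturase, at 0.13, followed by OSBPL6 and NEXMIF. For GJB5 they were FGFR3, OTUD3, and SNX11, and for GJA4 SIPA1L3, ZCCHC17, and TMEM161A. For GJC1 they were HLA-DPA1, a chain of an MHC class II molecule, COL4A2, a basement membrane collagen, and KRT19, a keratin of mucosal epithelium. KRT19 was at 4272 in conjunctiva, 2291 in limbus, and 739 in cornea, so genes of unlike cell types shared the order of GJC1.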

How the data were processed

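Total RNA was amplified in 2 rounds and hybridized to Affymetrix U133 Plus 2.0 arrays, 1 array for each of 3 tissues. Per the methods, the authors normalized each array by RMA (justRMA in R) with a fixed pool of reference arrays; versions are not given in the sources used here. The authors deposited 1 linear intensity per array for each of 54675 probe sets, with 0 missing, and these were used as they are. Differences of scale between arrays can remain. Probe sets were named from the platform annotation, where 41097 carry 1 gene symbol and 1801 carry more than 1; the latter gave no gene, and the other 11777 stay unnamed. Because the probes are human, levels of different probe sets were not compared, except to pick for each gene its brightest probe set by mean log2 value and in the marker sums.

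Ratios and log2 differences were computed with Python 3.11.15, numpy 2.4.6, and pandas 2.3.3, and plots with matplotlib 3.10.9. A probe set passed the 2-fold rule for a tissue at a ratio of at least 2 to both others, with no filter on level. With 1 array per tissue no test was made; precision is limited by this number of arrays. Marker sums add the brightest probe set of each gene, so that bright probe sets weigh most in them. The code was tested on simulated arrays. The genes and lists were chosen with earlier results of these data known. Named were the 7 genes, other connexins and pannexins at 100 or more, listed partners and purinergic genes at least 2-fold higher or lower in 1 tissue at 100 or more, and the 3 genes nearest in pattern. TJP1, DBN1, P2RY2, P2RX7, GJA5, the other arterial endothelial genes, and the neighboring genes were named after their values were seen. Alternatives were quantile normalization, division by the array median or by the mean of the hybridization controls, a pseudocount of 32, thresholds of 1.5 and 3, a minimum of 100, and other choices of probe set. Division by the geometric mean of the controls was chosen after seeing the data. RefSeq coordinates served only for the order of genes.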

Additional observations from a re-analysis of the deposited data

How the results depend on the processing

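The number of connexin and PANX1 probe sets at least 2-fold higher in cornea than in both other tissues was 4 as deposited, 2 after quantile normalization, 1 after division by the mean of the hybridization controls, 1 after division by their geometric mean, a choice made after seeing the data, and 1 at a threshold of 3-fold. The number at least 2-fold higher in cornea than in limbus was 4 and became 2, 1, 1, and 1 in the same settings. The number at least 2-fold higher in limbus than in cornea was 1 and became 4 after division by the mean of the controls, which lowers all cornea values. For the conjunctiva against both others, and against the limbus, the number was 0 and became 1 (GJC1) after quantile normalization and at a threshold of 1.5-fold. The remaining 68 of 81 recounted numbers stayed within 1.5 times of the deposited value. Of 147 recomputed log2 differences of single genes, 126 moved by less than 1.5-fold and 0 of those at least 2-fold apart changed sign. Much of this count was fixed in advance, so it does not measure stability. The probe set with the largest value was the brightest one for every gene, and for genes with 1 probe set the mean is unchanged. Division by a median or by controls shifts all genes alike for a pair of tissues. GJB5 and GJA4, less than 2-fold apart between cornea and limbus, changed from 0.29 and 0.19 to -0.48 and -0.59 with the mean of the controls. For GJC1, cornea minus limbus was -1.67 as deposited, -1.06 with a pseudocount of 32, and -0.56 as the mean over its probe sets. Of 60 recomputed medians over the gene lists, 5 moved by 1.5-fold or more. All of these were in the limbus with the mean of the controls, as from 0.24 to 0.90 for the 7 genes. This division shifts the median of every list in a tissue by the same amount, so that count was fixed in advance too. Of the 21 places among the nearest in pattern, held by 20 different genes, 19 kept their gene at a minimum of 200. No paired analysis was possible because there is 1 array per tissue and the labels carry no replicate numbers. Ratios of values under 100 are uncertain.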

Other observations

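Genes within 3 places of GJA1 and PANX1 on the vervet assembly were also read. TBC1D32, adjacent to GJA1, was under 100 in all tissues, with a ratio of cornea to conjunctiva of 1.14. Beyond it, the mannosidase gene MAN1A1 ran opposite to GJA1, at 31.1 in cornea, 536 in limbus, and 830 in conjunctiva. FAM184A, next after MAN1A1, was at 42.7, 174, and 168 in the same order. On the other side, the adjacent gene HSF2 had no probe set named for it alone. SERINC1, past HSF2, was at 602, 430, and 396. Neither gene adjacent to PANX1 had a probe set named for it alone. GPR83, the nearest measured gene, was under 100 in all tissues, with a ratio of cornea to conjunctiva of 0.966. Farther from PANX1, the Mediator subunit MED17 was at 417 in cornea, 311 in limbus, and 204 in conjunctiva. The DNA repair nuclease MRE11 was at 382, 251, and 198. MED17 and MRE11 were about as far apart between cornea and conjunctiva as ZMYM2 beside GJA3. Near GJC1, the splicing factor EFTUD2 was at 643, 618, and 697, with ratios under 1.2 between any 2 tissues.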
